A study of Caenorhabditis elegans with 24 samples.

Results

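The genes described here are the worm's Hedgehog-related ligands and its patched-related transporter-like receptors, followed in whole Caenorhabditis elegans larvae with and without food. Members were the entries of the deposited count table named wrt (warthog), grd (groundhog), grl (ground-like), hog, qua, ptc (patched) or ptr (patched-related) with 10 or more counts in at least 3 of the 24 libraries. They numbered 66 of the 85 entries so named, among 43800 entries in all. The members were 9 wrt, 13 grd and 18 grl genes, hog-1, qua-1, 2 ptc genes and 22 ptr genes. The animals were hermaphrodites at the L4 stage, the last larval stage, of the wild-type strain N2 and of strains carrying efk-1(ok3609), zip-2(tm4248) or cep-1(gk138). EFK-1 phosphorylates the elongation factor eEF2 and so slows translation, ZIP-2 is a transcription factor of the bZIP class and CEP-1 is related to p53. Larvae had grown on OP50 bacteria to mid-L4. They were frozen then (fed) or after washing and 8 h on plates without bacteria (starved). Starved animals were thus 8 h older than fed ones, and age and food cannot be told apart. Each strain and food state had 3 libraries of strand-specific mRNA from whole worms, which makes 8 groups. The labels do not say that replicates came from separate cultures, so p-values measure only the spread between these samples.

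In flies and vertebrates, Hedgehog is a secreted ligand whose precursor cleaves itself through a Hog domain, and Patched is a membrane protein with a sterol-sensing domain that holds the pathway off. The worm has no Hedgehog ligand of the standard kind and no Smoothened, but it has large families related to the ligand and to Patched. WRT, GRD, HOG and QUA proteins carry or descend from proteins with a Hog domain, whereas the ground-like proteins lack it. Many of these genes are expressed in the epidermis and in the glia and duct cells that face the cuticle, and many cycle with the moults. Loss of several of them disturbs moulting or the apical extracellular matrix.

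Library totals ran from 14622266 to 30266282 estimated counts, a ratio of 2.07, and levels below are counts scaled to library size by TMM (CPM). The targeted gene efk-1 stood at 8.83, 7.07 and 9.04 CPM in fed and 10.6, 11.5 and 13.1 CPM in starved efk-1 libraries. N2 held 29.6, 36.8 and 38.4 CPM fed and 72.97, 104 and 81.4 CPM starved (efk-1 against N2, log2 -2.07 and -2.87, edgeR adjusted p = 5.75e-06 and 2.82e-08). The zip-2 transcript was lower without passing the test in the zip-2 strain, at log2 -0.81 fed (edgeR adjusted p = 0.258) and -0.52 starved (1.0). The cep-1 transcript did not mark its strain, at log2 0.34 fed and -0.21 starved (edgeR adjusted p = 0.552 and 0.818), so these libraries are called those labelled cep-1. Among the tissue markers, the 5 listed for the epidermis were each above 1 CPM in every library, and the 3 male markers summed to at most 7.24 CPM.

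Some libraries stood apart on the members. Replicate 2 of starved N2 was the lowest of its group for 51 of the 66 members, and for 46.2% of all genes tested. In the starved efk-1 group replicate 2 was lowest for 53 members (44.7% of genes), and in the starved zip-2 group for 42 (44.6%). Among fed animals, N2 replicate 2 was lowest for 42 members (28.6% of genes), and replicate 1 labelled cep-1 for 52 (39.5%). The map of the members over the 24 libraries shows these columns as paler or darker than their neighbours.

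**Figure D1:**
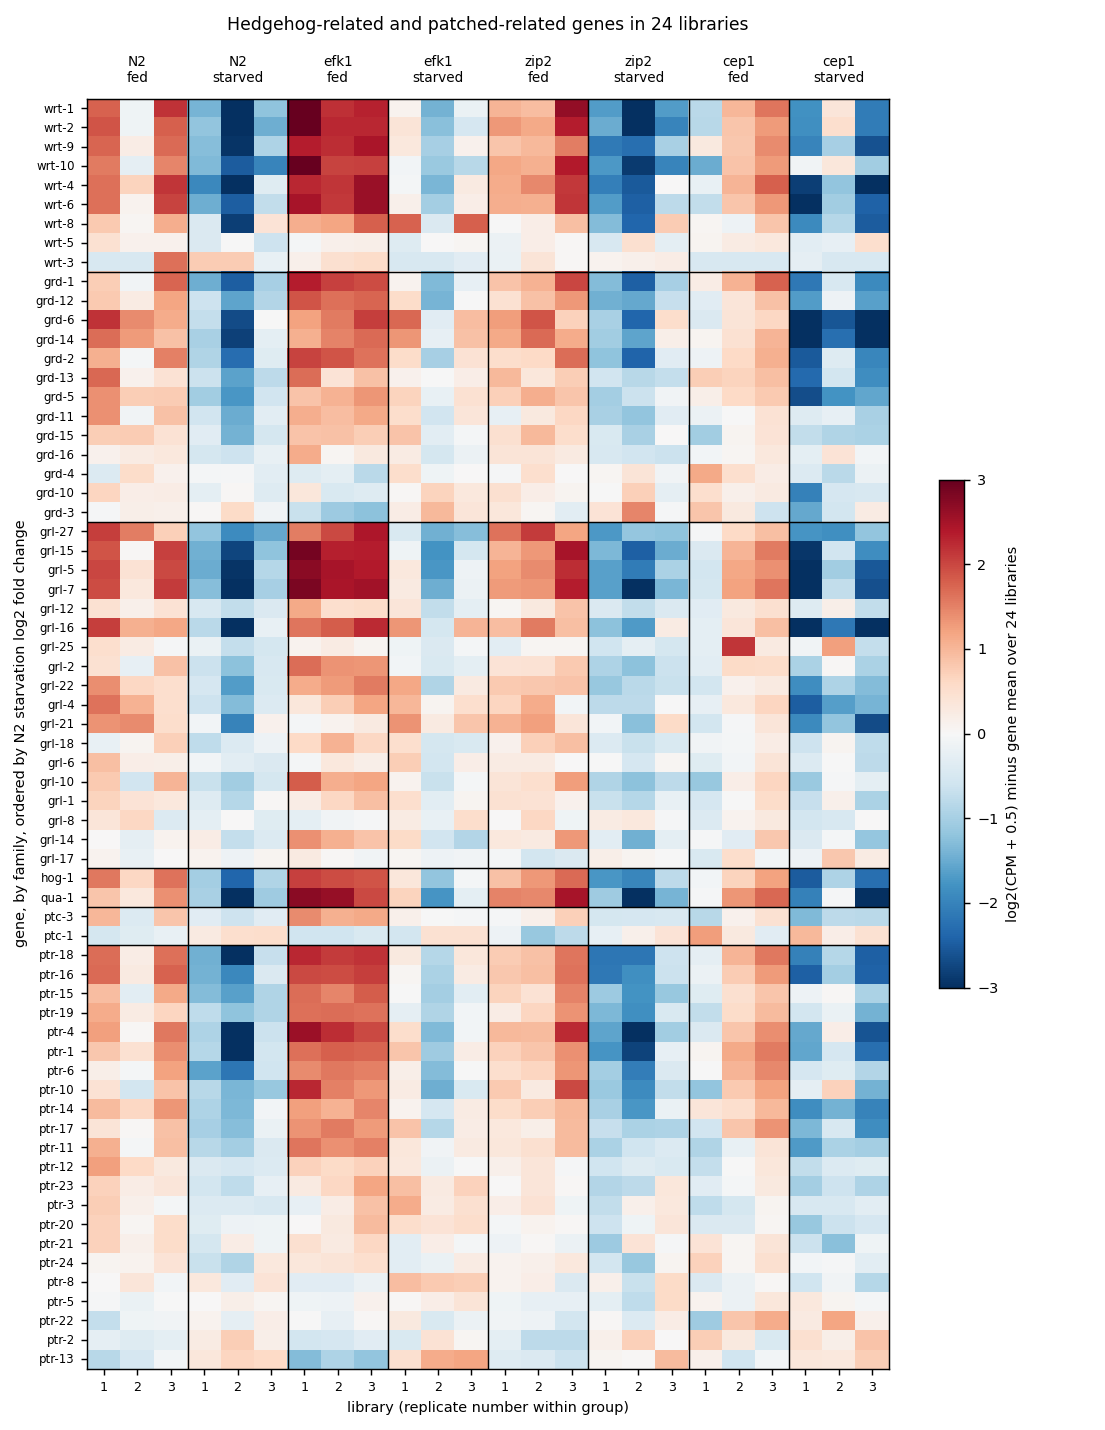
Each row is 1 of the 66 members and each column 1 of the 24 libraries. Colour gives log2(CPM + 0.5) minus the gene's mean over all libraries, and rows are grouped by family and ordered by the log2 fold change of starved against fed N2. Most rows are red in fed and blue in starved libraries, the rows at the foot of the grd, ptc and ptr blocks are not, and replicate 2 of starved N2 is the darkest blue column of that group.

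In fed N2 the members spanned a wide range of levels. Per length, as mean CPM per kilobase of annotated exon, grl-16 was highest at 615, with libraries from 449 to 912. It was followed by grd-5 at 460.3, grd-14 at 242, grl-4 at 181 and grl-7 at 116 CPM per kilobase. The library ranges of grl-16 (449 to 912) and grd-5 (389.7 to 597) overlapped, but within every fed N2 library grl-16 was the higher. The leading patched-related genes were ptr-2 at 29.5, ptc-3 at 25.1 and ptr-23 at 18.3 CPM per kilobase. In starved N2 the order of the means changed: grd-5 (112) and grl-16 (111) still led, and grd-3 came next at 78.9 CPM per kilobase. Library ranges overlapped, at 67.8 to 156 for grd-5, 24.8 to 185 for grl-16 and 63.8 to 102 for grd-3. In starved replicate 2 grd-3 stood at 102, grd-5 at 67.8 and grl-16 at 24.8, while grl-16 exceeded grd-5 in the other starved N2 libraries.

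Starvation of N2 was accompanied by lower levels of most of these genes. Of the 66 members, 41 fell and 1 rose (edgeR's quasi-likelihood test, Benjamini-Hochberg adjusted p under 0.05 over 15871 genes), where 16.4% of all genes tested fell and 15.9% rose. The median log2 fold change was -1.92 over the members and -0.0003 over all genes. In 48 members every starved N2 library lay below every fed one, against 24.1% of all genes, and in 4 every starved library lay above (27%). By family, 6 of 9 wrt, 10 of 13 grd and 11 of 18 grl genes fell, as did hog-1, qua-1, 1 of 2 ptc genes and 11 of 22 ptr genes. In bulk RNA from whole worms, fewer cells of a type and less RNA per cell cannot be told apart. Leaving out replicate 2 of starved N2, the library lowest for most members, left 28 members called in place of 42. The members that reached the count minimum through fed libraries alone were grd-16, grl-12 and grl-25. That minimum favours genes high in fed animals, and grd-16 and grl-12 are in the counts of falls in N2 and zip-2. Without these 3 members, 39 of 63 fell in N2 and 42 in zip-2 animals.

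The warthog genes fell furthest as a family, with a median log2 fold change of -3.06 in N2. For wrt-1 (WBGene00006947, chromosome II from 7530996 to 7533246, plus strand), fed N2 libraries held 51.7, 13.4 and 68.5 CPM and starved ones 5.32, 0.879 and 6.09 CPM. All starved values lay below the lowest fed value, which was replicate 2 (log2 fold change -3.41 ± 0.84, SE, edgeR adjusted p = 0.00455). The neighbouring wrt-10 went from 70.2, 19.6 and 66.4 CPM to 9.21, 3.79 and 5.65 CPM (-3.06 ± 0.64, edgeR adjusted p = 0.00141). On the X chromosome, wrt-2 stood at 62.4, 14.99 and 58.7 CPM fed and 6.96, 1.56 and 5.72 CPM starved (-3.23 ± 0.78, edgeR adjusted p = 0.00419). A lower-level member, wrt-9, went from 17.8, 5.82 and 17.1 CPM to 1.74, 0.203 and 2.35 CPM (-3.17 ± 0.64, edgeR adjusted p = 0.00111). As in wrt-1, the starved libraries of these 3 genes did not overlap the fed ones, and replicate 2 was the lowest starved library in each. Both wrt-4 (-3.06) and wrt-6 (-2.93) also fell. The wrt-5 gene did not pass the test, with 11.2, 8.87 and 8.81 CPM fed and 5.83, 7.98 and 5.04 CPM starved (-0.62 ± 0.28, edgeR adjusted p = 0.0877). Its libraries spanned a narrow range, and all starved values lay just under the fed ones. In wrt-8 replicate 2 of starved N2 stood at 0.609 CPM beside 5.32 and 9.89 CPM in the others, and the test was not passed.

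The same 6 wrt genes that fell in N2 fell in efk-1 and zip-2 animals, and 3 of them (wrt-4, wrt-6 and wrt-9) in the libraries labelled cep-1. In efk-1 animals wrt-1 went from 128, 69.6 and 74.8 CPM to 15.9, 5.18 and 12.8 CPM (-3.01 ± 0.81, edgeR adjusted p = 0.00952). Its zip-2 libraries held 30.7, 28.8 and 95.02 CPM fed and 4.25, 1.09 and 4.31 CPM starved (-3.96 ± 0.86, edgeR adjusted p = 0.00197). Those labelled cep-1 held 8.25, 30.1 and 45.8 CPM fed and 3.85, 19.05 and 3.05 CPM starved (-1.69 ± 0.78, edgeR adjusted p = 0.106). In that last pair of groups, fed replicate 1 lay below starved replicate 2, so the groups overlapped. The wrt-10 gene overlapped there too, at 8.16, 43.4 and 58.1 CPM fed and 22.2, 30.2 and 11.2 CPM starved (-0.78 ± 0.59, edgeR adjusted p = 0.326).

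Groundhog genes divided into many that fell and a few that did not. The largest change in N2 was that of grd-1 (WBGene00001690, chromosome X from 11109440 to 11115887), from 9.86, 5.26 and 20.2 CPM to 1.74, 0.609 and 2.63 CPM (-2.77 ± 0.65, edgeR adjusted p = 0.00321). It fell in all 4 strains, by log2 values from -3.13 in zip-2 to -2.63 in efk-1 animals. For grd-6 the values were 232, 138 and 111 CPM fed and 31.3, 7.58 and 51.1 CPM starved (-2.41 ± 0.68, edgeR adjusted p = 0.0109), and without starved N2 replicate 2 the adjusted p was 0.0526. The fed libraries of grd-6 were ordered unlike those of the wrt genes, with replicate 1 highest and replicate 3 lowest. The grd-14 gene went from 186, 141 and 106 CPM to 29.2, 7.91 and 46.7 CPM (-2.36 ± 0.54, edgeR adjusted p = 0.00278). Expression of grd-12 was low, at 2.46, 1.52 and 3.40 CPM fed and 0.614, 0.0676 and 0.433 CPM starved (-2.63 ± 0.83, edgeR adjusted p = 0.0208). The grd-12 gene overlaps xbx-1 and F02D8.1, and whether counting used strand is not given in the sources used here. Its call was lost without fed N2 replicate 3 or starved N2 replicate 2 (adjusted p up to 0.0832). In contrast to these, grd-3 stood at 46.2, 53.8 and 53.01 CPM fed and 48.9, 70.6 and 44.1 CPM starved in N2 (0.09 ± 0.41, edgeR adjusted p = 0.877). Its fed and starved libraries overlapped, and replicate 2 was its highest starved library.

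Ground-like genes include the member with the smallest p in N2. That gene, grl-27 (WBGene00001736, chromosome V from 3575055 to 3575859), held 21.9, 14.9 and 8.27 CPM fed and 1.84, 0.947 and 1.33 CPM starved (-3.44 ± 0.44, edgeR adjusted p = 8.16e-06). All 3 starved libraries were below every fed one. It fell also in efk-1 (-3.28), zip-2 (-3.39) and cep-1-labelled animals (-2.51). The grl-15 gene, which overlaps Y75B8A.19, went from 37.3, 9.96 and 41.7 CPM to 3.22, 1.01 and 3.89 CPM (-3.41 ± 0.72, edgeR adjusted p = 0.00155). For grl-5 the values were 97.9, 32.6 and 97.1 and 8.19, 2.71 and 13.04 CPM (-3.23 ± 0.70, edgeR adjusted p = 0.00196). The secreted protein of grl-7 is found in the extracellular matrix and is cleared from it by PTR-18 in young larvae. Its transcript went from 171, 54.3 and 187 CPM to 17.8, 5.01 and 21.7 CPM (-3.20 ± 0.73, edgeR adjusted p = 0.00264). In grl-15, grl-5 and grl-7 fed replicate 2 was the lowest fed library and starved replicate 2 the lowest starved one, and fed and starved did not overlap. The not-called gene grl-8 had 1.96, 2.45 and 0.935 CPM fed and 1.07, 1.42 and 0.989 CPM starved (-0.64 ± 0.38, edgeR adjusted p = 0.195). The other grl genes that fell in N2 and had not reached the minimum through fed libraries alone ranged from -2.47 (grl-16) to -1.35 (grl-10). They include grl-2, a gene of the excretory duct and pore and of socket glia, at -2.23 ± 0.70 (edgeR adjusted p = 0.0196).

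The single members of the hog and qua families both fell in all 4 strains. hog-1 (WBGene00001984, chromosome X from 5851953 to 5854263, overlapping atat-2) went in N2 from 17.9, 8.90 and 18.6 CPM to 2.51, 0.676 and 2.75 CPM (-2.89 ± 0.57, edgeR adjusted p = 0.000948). qua-1 (WBGene00004264, chromosome II from 8198803 to 8204004), whose loss impairs moulting, held 66.9, 46.5 and 97.5 CPM fed and 18.7, 3.11 and 17.3 CPM starved (-2.42 ± 0.79, edgeR adjusted p = 0.0239). In both genes the starved libraries lay below the fed ones, with replicate 2 far under the other starved libraries. The qua-1 call in N2 was lost without fed replicate 3 or without starved replicate 2 (adjusted p up to 0.0997). Its zip-2 libraries went from 105, 101 and 209 CPM to 17.4, 2.80 and 13.7 CPM (-3.59 ± 0.83, edgeR adjusted p = 0.00294).

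The patched genes themselves did not move together. PTC-3 is needed for osmoregulation and for sterol handling, and ptc-3 (WBGene00004210, chromosome II from 2845412 to 2852593) stood at 147, 55.6 and 133 CPM in fed and 58.1, 48.02 and 58.3 CPM in starved N2. Fed replicate 2 lay inside the starved range, the other fed libraries above it (log2 fold change -1.03 ± 0.31, edgeR adjusted p = 0.0156). The adjusted p rose to as much as 0.0918 without fed N2 replicate 1, fed replicate 3 or starved replicate 2. The gene fell in each of the other strains as well, at -1.18 in efk-1, -0.83 in zip-2 and -0.98 in cep-1-labelled animals. PTC-1 acts in cytokinesis of the germ line. Its gene (WBGene00004208, chromosome II from 7893222 to 7900515) had 75.3, 84.8 and 93.8 CPM fed and 132, 155 and 159 CPM starved in N2. All starved values were above all fed values, yet the test was not passed (0.81 ± 0.34, edgeR adjusted p = 0.067). With only the 6 N2 libraries in the fit the same difference had an adjusted p of 0.0111. On leaving out 1 library it ran from 0.74 to 0.89, with an edgeR adjusted p of up to 0.172. The ptc-1 difference did not pass in efk-1 (0.75), zip-2 (0.76) or cep-1-labelled animals (0.03) either.

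**Figure D2:**
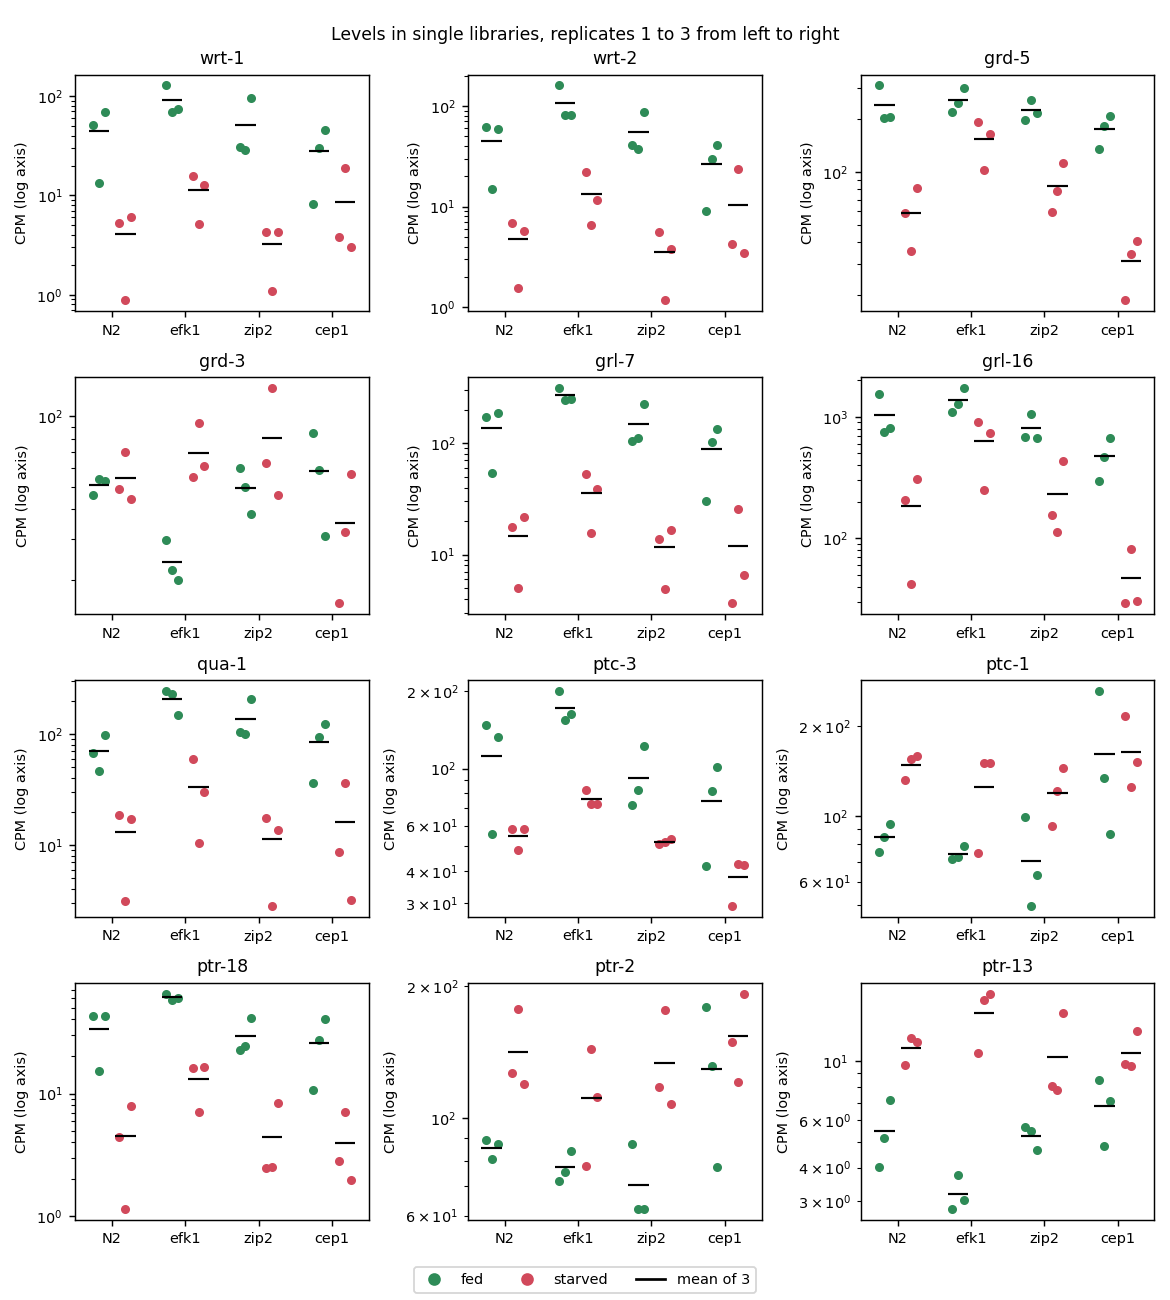
Each panel shows 1 member, with CPM on a log axis for each library of the 4 strains, fed in green and starved in red, replicates 1 to 3 from left to right and the mean of 3 as a bar. In N2, starved points of wrt-1, wrt-2, grd-5, grl-7, grl-16, qua-1 and ptr-18 sit under the fed points, those of ptc-1, ptr-2 and ptr-13 over them, and those of grd-3 among them.

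Patched-related genes, most of which have no assigned ligand, ranged from strong falls to rises. PTR-18 clears GRL-7, and its gene (WBGene00004232, chromosome II from 12965546 to 12978171, overlapping Y38F1A.4) went in N2 from 43.04, 15.3 and 42.3 CPM to 4.45, 1.15 and 7.94 CPM (-2.86 ± 0.64, edgeR adjusted p = 0.00238). Both ptr-18 and grl-7 fell in all 4 strains. ptr-16 went from 28.5, 10.3 and 29.7 to 2.81, 1.83 and 6.09 CPM (-2.64 ± 0.58, edgeR adjusted p = 0.00196). For ptr-15, which overlaps mec-1, the values were 5.23, 1.92 and 6.10 and 0.716, 0.473 and 1.11 CPM (-2.45 ± 0.51, edgeR adjusted p = 0.00132). ptr-19 was at 3.37, 1.62 and 2.31 and 0.563, 0.271 and 0.463 CPM (-2.44 ± 0.67, edgeR adjusted p = 0.0098). Fed and starved libraries of these 4 genes did not overlap. Also among those that fell was ptr-4, which shapes the precuticle matrix, at -2.40 ± 0.76 (edgeR adjusted p = 0.0207). ptr-10, a gene of glia, did not pass in N2 (-1.97 ± 0.80, edgeR adjusted p = 0.0621) and did in efk-1 (-2.48) and zip-2 (-3.03). ptr-2, needed in the embryo, stood at 89.1, 80.8 and 87.3 CPM fed and 127, 177 and 120.0 CPM starved in N2. Every starved library was above every fed one (0.72 ± 0.28, edgeR adjusted p = 0.0522).

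Few members rose, and the following were named after their values were seen. ptr-13 (WBGene00004227, chromosome II from 11156589 to 11162481) was the 1 member that rose in N2, from 4.02, 5.16 and 7.19 CPM to 9.67, 12.2 and 11.8 CPM (1.04 ± 0.29, edgeR adjusted p = 0.0105). It rose from 2.80, 3.76 and 3.04 CPM to 10.7, 16.9 and 17.8 CPM in efk-1 animals (2.24 ± 0.30, edgeR adjusted p = 1.81e-05) and by 0.97 in zip-2 animals. In the libraries labelled cep-1 the starved values were also all above the fed ones, without passing (0.66, edgeR adjusted p = 0.0889). In efk-1 animals grd-3 rose from 29.6, 21.98 and 19.9 CPM to 55.1, 93.2 and 61.2 CPM (1.55 ± 0.42, edgeR adjusted p = 0.00982). There too, ptr-8 rose from 12.9, 12.98 and 14.5 CPM to 31.7, 28.99 and 27.97 CPM (1.13 ± 0.28, edgeR adjusted p = 0.00562). The fed efk-1 libraries of grd-3 were the lowest of any group's fed libraries for that gene. ptr-2 rose in zip-2 animals, from 87.5, 62.1 and 62.2 CPM to 118, 176 and 108 CPM (0.92 ± 0.28, edgeR adjusted p = 0.0155).

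**Figure D3:**
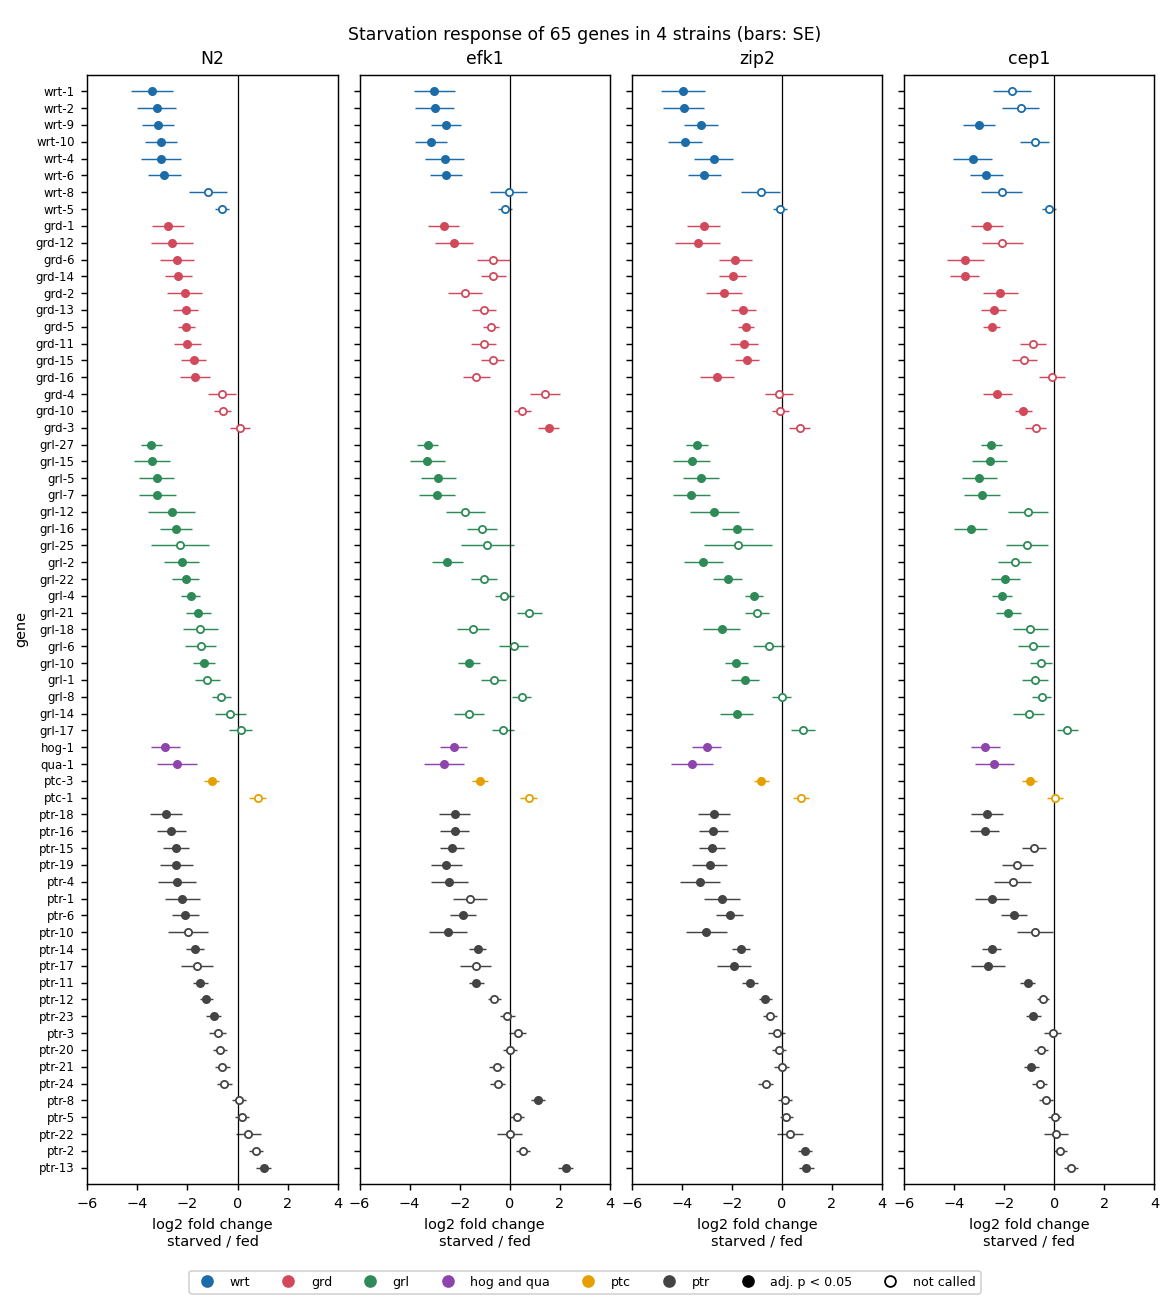
Points give the log2 fold change of starved against fed animals for each member except wrt-3, 1 panel per strain, with bars of 1 SE. Filled points passed an adjusted p under 0.05. Most filled points lie left of 0 in every panel, and the points right of 0 that are filled are ptr-13 in N2, grd-3, ptr-8 and ptr-13 in efk-1, and ptr-2 and ptr-13 in zip-2.

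Many members fell on starvation in each of the mutant strains as well. In efk-1 animals 26 fell and 3 rose, where 11.6% of all genes fell and 13.7% rose, and the members' median was -1.24 against 0.06 over all genes. In zip-2 animals 44 fell and 2 rose (16.8% and 17.6% of all genes), with a median of -1.80 against 0.01. In the libraries labelled cep-1, 31 fell and 0 rose (16.1% and 12.3%), with a median of -1.29 against 0.01. Without efk-1 starved replicate 2 the efk-1 count of calls was 18, without zip-2 starved replicate 2 the zip-2 count was 28, and without fed replicate 3 the cep-1-labelled count was 20. Members that fell in all 4 strains numbered 16, against 6.81% of all genes: wrt-4, wrt-6, wrt-9, grd-1, grl-5, grl-7, grl-15, grl-27, hog-1, qua-1, ptc-3, ptr-6, ptr-11, ptr-14, ptr-16 and ptr-18. They made up 39.0% of the members that fell in N2, 61.5% of those in efk-1, 36.4% of those in zip-2 and 51.6% of those in cep-1-labelled animals. In at least 1 strain 49 fell, and 13 passed in neither direction in any strain.

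The 10 members highest per length in fed N2, a set chosen after the values were seen, are given next in efk-1, N2 and cep-1-labelled animals. They are grl-16, grd-5, grd-14, grl-4, grl-7, grl-5, grl-21, grd-6, grd-3 and wrt-10. For grl-16, N2 held 1533, 754 and 812 CPM fed and 206, 41.7 and 310.4 CPM starved (-2.47 ± 0.63, edgeR adjusted p = 0.00629). In efk-1 animals it held 1104, 1278 and 1719 CPM fed and 908, 250.0 and 729.9 CPM starved (-1.12 ± 0.61, edgeR adjusted p = 0.187). The cep-1-labelled libraries held 296, 466 and 674 CPM fed and 29.2, 81.3 and 30.6 CPM starved (-3.35 ± 0.66, edgeR adjusted p = 0.000745). Starved libraries lay below fed ones in each of these strains, and efk-1 replicate 2 was the lowest starved efk-1 library. The highest log2 value was likewise that of efk-1 and the lowest that of the cep-1-labelled animals for grd-5 (log2 -0.74 in efk-1, -2.04 in N2 and -2.50 in cep-1-labelled animals), grd-14 (-0.65, -2.36 and -3.58) and grd-6 (-0.65, -2.41 and -3.55). So it was for grl-4 (-0.22, -1.86 and -2.08) and grl-21 (0.78, -1.57 and -1.83). These 6 genes did not pass in efk-1 and passed in N2 and in the cep-1-labelled animals. grl-7 (-2.91, -3.20 and -2.88) and grl-5 (-2.85, -3.23 and -3.004) fell in all 3. grd-3 rose in efk-1 (1.55) and did not pass in N2 (0.09) or in the cep-1-labelled animals (-0.74). wrt-10 fell in efk-1 (-3.13) and N2 (-3.06) and did not pass in the cep-1-labelled animals (-0.78). In zip-2 animals grl-21 and grd-3 did not pass, and the rest of the 10 fell. The efk-1 and cep-1-labelled responses were not tested against each other.

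Interactions of strain and food, which compare the response of a mutant with the one seen in N2, passed for 0 members in each mutant, in edgeR and in DESeq2. Over all genes 0.246% passed for efk-1, 0% for zip-2 and 0% for the cep-1-labelled animals. At an unadjusted p under 0.05 there were 10 members for efk-1 (5.38% of all genes), 0 for zip-2 (1.23%) and 4 for the cep-1-labelled animals (5.68%). The 10 for efk-1 were grd-3, grd-4, grd-5, grd-10, grd-14, grl-4, grl-21, ptr-3, ptr-8 and ptr-13, all with a positive difference. The smallest p among them was that of grl-21, from 23.8, 26.98 and 30.3 CPM to 64.3, 30.1 and 44.6 CPM in efk-1 and from 64.7, 68.01 and 35.98 CPM to 23.6, 5.88 and 27.1 CPM in N2. The difference of log2 fold changes was 2.35 ± 0.70 (edgeR adjusted p = 0.269). The 4 for the cep-1-labelled animals were grd-4, ptr-12, ptr-15 and wrt-10, led by wrt-10 at 2.28 ± 0.85 (edgeR adjusted p = 0.704).

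In fed animals, 0 members differed between any mutant and N2 by edgeR's adjusted test, where 1.51% of all genes did for efk-1, 1.13% for zip-2 and 4.89% for the cep-1-labelled animals. Unadjusted p was under 0.05 for 10, 1 and 12 members (7.79%, 3.24% and 25% of all genes), and DESeq2 called 0, 0 and 3. In fed efk-1 animals the log2 difference from N2 was positive for 50 of 66 members, against 51.4% of all genes. Its median was 0.49 over the members and 0.01 over all genes. There 29 members had all 3 libraries above those of N2 (12.3% of all genes) and 4 had all below (12.8%). Among the latter were grd-3, at 29.6, 21.98 and 19.9 CPM against 46.2, 53.8 and 53.01 CPM in N2 (-1.10 ± 0.42, edgeR adjusted p = 0.383), and ptr-13 (-0.77 ± 0.30, edgeR adjusted p = 0.422). Fed N2 replicate 2, low for most members, is one of the libraries in these comparisons, which share the N2 libraries.

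As in fed animals, members in starved animals leaned higher in efk-1 than in N2, here almost throughout, although few passed the test. The log2 difference was positive for 61 of 66 members, against 56.4% of all genes, with a median of 1.16 against 0.08. By the test, 2 members were higher and 0 lower, where 0.693% of all genes were higher and 1.23% lower. The first was grd-5 (WBGene00001694, chromosome V from 8619032 to 8619870), at 192, 104 and 165 CPM in starved efk-1 and 58.5, 35.5 and 81.8 CPM in starved N2 (1.39 ± 0.33, edgeR adjusted p = 0.0254). The second was ptr-23, at 86.8, 56.3 and 75.5 CPM and 31.4, 27.1 and 38.9 CPM (1.17 ± 0.30, edgeR adjusted p = 0.0422). In both genes the efk-1 libraries lay above all those of N2, and replicate 2 was the lowest in each strain. Leaving out 1 library ended the call in 4 of 6 cases for grd-5 and in 5 of 6 for ptr-23, and with only these 2 groups in the fit 0 members passed. Replicate numbers in the titles went with shared deviations in these starved groups. Same-numbered starved libraries of efk-1 and N2 deviated together from their group means (r from 0.391 to 0.752 over genes). With the replicate number as a block and only these libraries in the fit (2 residual degrees of freedom), 42 members were higher and 2 lower, where 15% of all genes were higher and 13.1% lower.

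Counted pair by pair, 52 of the 66 members were higher in starved efk-1 than in starved N2 in each of the 3 same-numbered pairs, against 33.1% of all genes, and 4 were lower in each (26.6%). The grl-4 gene held 136, 72.3 and 97.3 CPM in efk-1 and 44.2, 27.1 and 50.9 CPM in N2 (blocked log2 difference 1.28 ± 0.13, edgeR adjusted p = 1.62e-06). For wrt-10 the values were 22.4, 10.8 and 13.1 CPM and 9.21, 3.79 and 5.65 CPM (blocked 1.28 ± 0.16, edgeR adjusted p = 1.41e-05). The qua-1 values were 59.03, 10.5 and 30.2 CPM and 18.7, 3.11 and 17.3 CPM (blocked 1.31 ± 0.17, edgeR adjusted p = 9.13e-05). In each of these genes efk-1 was the higher of every pair, while efk-1 replicate 2 lay under N2 replicate 1 in qua-1. The 2 members lower under the block were ptr-2 (blocked -0.41 ± 0.14, edgeR adjusted p = 0.0353) and wrt-3, which had 0, 0 and 1 counts in starved efk-1 and 13, 10 and 3 in starved N2.

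**Figure D4:**
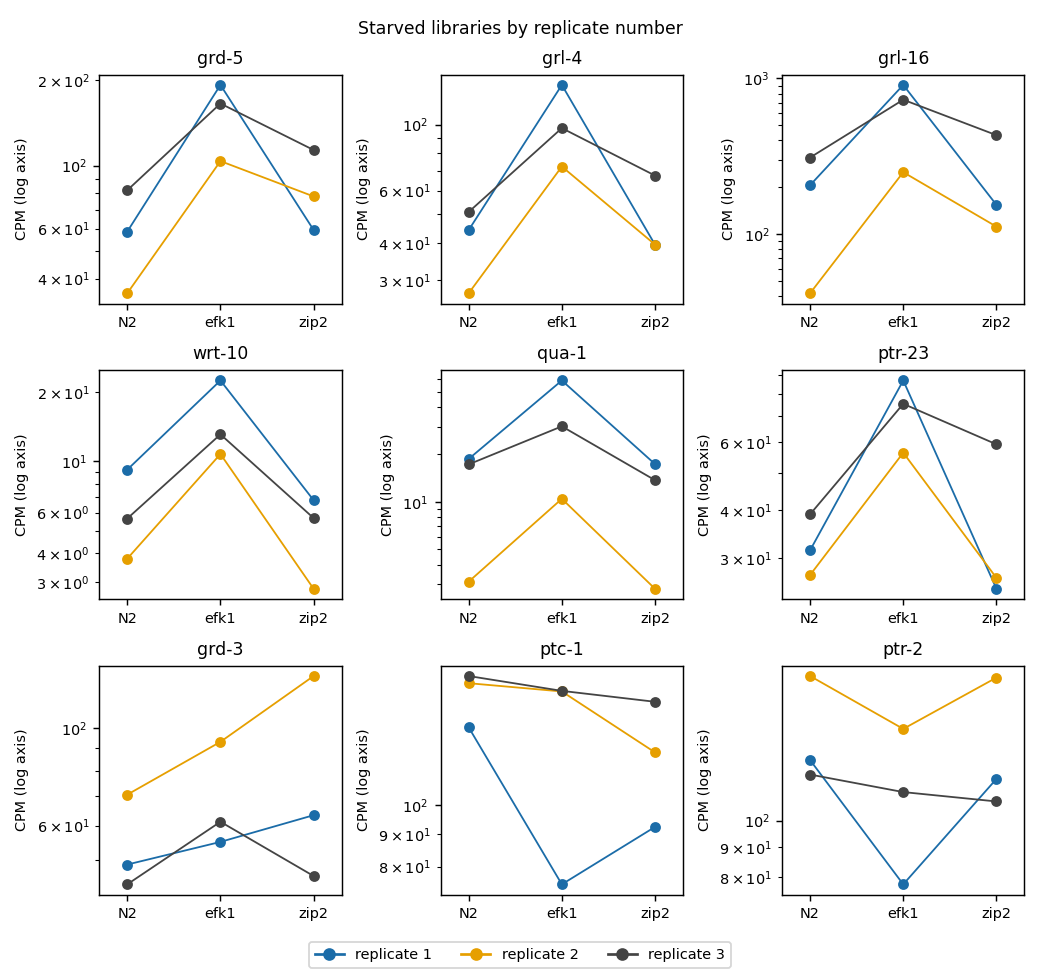
CPM on a log axis in starved libraries of N2, efk-1 and zip-2 for 9 members, with lines joining libraries of the same replicate number. For grd-5, grl-4, grl-16, wrt-10, qua-1 and ptr-23 every line is higher at efk-1 than at N2, and in ptr-2 every line is lower there.

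Starved zip-2 animals gave 0 calls among the members against N2 (1.3% of all genes), 0 at an unadjusted p under 0.05 (2.91%) and 0 in DESeq2. The members' median was -0.08 against 0.03 over all genes. Same-numbered libraries deviated together here as well (r from 0.538 to 0.693), and with the block 0 members passed (1.81% of all genes). Higher in every pair were 7 members (18.9% of all genes), and 7 were lower in every pair (13.4%). A value near 0 that misses the threshold does not show equal levels. For qua-1, for example, starved zip-2 libraries held 17.4, 2.80 and 13.7 CPM beside the 18.7, 3.11 and 17.3 CPM of N2.

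Starved libraries labelled cep-1 had 2 members lower than in N2 and 0 higher, where 4.37% of all genes were lower and 3.33% higher. grd-6 stood at 4.95, 8.19 and 2.44 CPM beside 31.3, 7.58 and 51.1 CPM in N2 (-2.52 ± 0.69, edgeR adjusted p = 0.0293). grd-14 stood at 5.20, 11.6 and 4.82 CPM beside 29.2, 7.91 and 46.7 CPM (-1.96 ± 0.54, edgeR adjusted p = 0.03). In both genes N2 replicate 2 lay inside the cep-1-labelled range while the other N2 libraries lay above it. Each call ended in 4 of 6 cases when 1 library was left out, and neither passed with only these groups in the fit. Without N2 starved replicate 2 the number of members called was 6. Of the members that did not pass, grl-16 had a log2 difference of -1.98 ± 0.62 (edgeR adjusted p = 0.055) and wrt-10 one of 1.77 ± 0.61 (edgeR adjusted p = 0.0831), with wrt-10 higher than in N2 in all libraries.

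The members lay on all 6 chromosomes, 21 of them on V, 12 on X and 11 on II, and some were close neighbours. wrt-1 and wrt-10 lie on opposite strands of II, 16 bp apart, and wrt-1 over wrt-10 had a median CPM ratio of 0.736 in fed N2 and 0.578 in starved N2. Starved N2 libraries of that ratio ran from 0.232 to 1.08 and included the fed range. grd-13, grd-3 and grd-10 follow each other on one strand of IV within gaps of 148 and 602 bp, yet their values differed. In N2 the log2 fold changes were -2.07 ± 0.49 for grd-13 (edgeR adjusted p = 0.00366), 0.09 ± 0.41 for grd-3 and -0.60 ± 0.34 for grd-10, of which grd-13 alone passed. The CPM ratio of grd-13 over grd-3 ran from 0.109 to 0.407 in fed and from 0.0201 to 0.0659 in starved N2, without overlap. In efk-1 it ran from 0.330 to 0.613 fed and from 0.0567 to 0.108 starved, again without overlap. A ratio of neighbours shows unequal change and not which of them moved.

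Other genes of the pathway and of the moult were read beside the members, from lists chosen with earlier results of these data known. Of 9 other pathway genes, 3 fell and 1 rose in starved N2, where 16.4% of all genes fell and 15.9% rose. The patched-related glial gene daf-6 went from 4.63, 2.88 and 7.43 CPM to 0.921, 0.473 and 1.05 CPM (-2.55 ± 0.58, edgeR adjusted p = 0.00265). The Dispatched relative che-14, which serves apical secretion, fell by 1.89 on the log2 scale and hhat-2 by 1.62. tra-2, a Patched-like protein of sex determination, rose from 23.3, 27.2 and 24.9 CPM to 45.8, 44.8 and 37.3 CPM (0.76 ± 0.20, edgeR adjusted p = 0.00823). The worm's Gli homolog tra-1 did not pass in N2 (0.08 ± 0.19, edgeR adjusted p = 0.782). The Niemann-Pick type C relatives ncr-1 (0.05) and ncr-2 (-0.60), which carry sterol-sensing domains, did not pass either.

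Of 13 moulting regulators 7 (53.8%) fell and 0 rose in N2, where 16.4% of all genes fell and 15.9% rose. The smallest p was that of lin-42, the Period homolog that times the moults, at -3.10 ± 0.49 (edgeR adjusted p = 9.70e-05), and the nuclear receptor nhr-23, which drives moulting genes, was at -0.00 ± 0.22 (edgeR adjusted p = 0.989). Of 21 moulting effectors 10 (47.6%) fell and 1 rose. The smallest p among them was that of mlt-8, at -3.17 ± 0.55 (edgeR adjusted p = 0.000251), and mlt-10 was at -3.24 ± 0.66 (edgeR adjusted p = 0.00111). A list of the apical matrix and its attachment to the epidermis had 14 genes tested. Of these 13 (92.9%) fell, among them noah-1 (-2.99) and lpr-3 (-3.27). In the libraries labelled cep-1, 3 of these 14 fell, which is 21.4% where 16.1% of all genes fell. They were cut-2 and the attachment genes mup-4 and vab-10, while noah-1 was at -0.49 ± 0.60 (edgeR adjusted p = 0.568). This difference between strains was not tested for the listed genes.

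Markers of the tissues in which these families are known were read in the same libraries. The 5 markers listed for the epidermis gave 0 calls in starved against fed N2. Their summed level ran from 201 to 225 CPM fed and from 213 to 236 CPM starved. The sum covers unlike markers: lin-26 went from 41.7, 38.02 and 49.8 CPM to 58.3, 85.7 and 56.9 CPM. Its starved libraries lay above all fed ones, while fed and starved libraries of elt-1, elt-3, ajm-1 and dlg-1 overlapped. Among the 5, ajm-1, at 105 to 106 CPM in fed N2, and dlg-1 are junction genes of other epithelia too. Of the 4 seam markers tested, 1 rose and 0 fell. Of 5 glial markers 3 were tested and 2 fell, fig-1 and vap-1, with a summed level of 31.4 to 38.5 CPM fed and 15.1 to 20.1 CPM starved. The part of glia in the members' fall was not tested.

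At the low end, 41 members had 10 or more counts in all 24 libraries. Just inside the minimum were wrt-3, with 10 or more counts as deposited in 3 libraries, and grl-25, in 6. Another wrt-3 library held 9.83 estimated counts, which rounds to the minimum. Just outside it, with 2 libraries each, were grl-3, grl-13, grl-20 and grl-23. In grl-25 a single fed library labelled cep-1, replicate 2, held 77 counts and starved replicate 2 held 40, with at most 14 in any other library. The excluded genes grl-20 and grl-23 had their highest counts in the same libraries, at 33 and 22 for grl-20 and 42 and 31 for grl-23.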

How the data were processed

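Whole-worm mRNA was read as 75-base paired ends, per the labels' protocols. The authors deposited 1 table of estimated counts per gene for the 24 libraries, of which 9.51% of nonzero values had a fractional part. The submitters' processing notes name Trimmomatic 0.36, Salmon 0.9.1, edgeR and the build WBcel235, without their roles. Gene IDs, coordinates and exon lengths come from the Ensembl release 115 annotation of WBcel235, in which 84 of the 85 family names had an entry. How reads were shared between related genes, and whether counting used strand, is not given in the sources used here, and 17 members overlap another protein-coding gene.

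After rounding to whole numbers, the counts were analysed in R 4.3.3 with edgeR 4.0.16. Genes had to pass edgeR's expression filter (minimum count 10, minimum total 15), which left 15871. Libraries were scaled by TMM, and 1 robust quasi-likelihood fit gave each of the 8 groups a mean, with 16 residual degrees of freedom and a common biological coefficient of variation of 29%. P-values were adjusted by Benjamini-Hochberg within each of 13 contrasts over all genes tested, and a gene was called at an adjusted p under 0.05. CPM were computed with edgeR from TMM-scaled library sizes. The fit was tested on simulated counts, with the same spread for every gene and 200 genes changed in starved N2. It called 98% of 4-fold and 16% of 2-fold changes in the right direction, with 4 false calls. Alternatives were DESeq2 1.42.0, its size factors, no filter, only the groups compared, a replicate block, and leaving out each library.

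The labels give no meaning to a replicate number. Same-numbered libraries deviated together, with every correlation over 0.1, in efk-1 against N2 starved and in zip-2 against N2 starved only, so the block is given beside those 2 comparisons. Replicate libraries correlated at 0.949 to 0.989 and differed by more than sampling noise (chi-square per degree of freedom at least 10.04). For each family the text gives every library of up to 4 members called in starved against fed N2 with the largest change and of the most abundant one not called, and of members called between a mutant and N2. Other genes were named after their values were seen. Members and lists were chosen with earlier results of these data known.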

Additional observations from a re-analysis of the deposited data

Results flagged for a closer look

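For grd-4, starvation values pointed opposite ways in 2 strains. In efk-1 animals every starved library lay above every fed one (log2 fold change 1.41, not passing the test), and in the libraries labelled cep-1 every starved library lay below every fed one (-2.27, edgeR adjusted p = 0.00517). The counts were few, at 5, 7 and 1 in fed and 23, 8 and 11 in starved efk-1 libraries, and 42, 23 and 17 in fed and 7, 2 and 7 in starved libraries labelled cep-1. The difference between these 2 responses was not tested. The neighbouring grd-14, 185 bp away, was at -0.65 in efk-1 and -3.58 in cep-1-labelled animals.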

How the results depend on the processing

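Counts of members called in starved against fed animals stayed within 1.5 times the reported count under DESeq2's size factors, no expression filter, the DESeq2 test, a fit of only the groups compared and the replicate block. Leaving out 1 library gave 28 to 45 calls in N2, 18 to 37 in efk-1, 28 to 45 in zip-2 and 20 to 40 in the libraries labelled cep-1. Calls between strains were less stable. In fed efk-1 against N2, only the groups compared gave 3 calls and the replicate block 2, in place of 0. In fed cep-1-labelled animals, DESeq2 size factors gave 1 call, the DESeq2 test 3 and leaving out 1 library 0 to 5, in place of 0. In starved efk-1 against N2 the 2 calls became 5 with DESeq2, 0 with only the groups compared, 44 with the replicate block and 0 to 4 on leaving out 1 library. In starved cep-1-labelled animals the 2 calls became 4 with DESeq2 size factors, 6 with DESeq2, 0 with no filter, 0 with only the groups compared, 0 with the replicate block and 0 to 6 on leaving out 1 library. The efk-1 interaction gave 0 to 1 calls on leaving out 1 library. The cause of these shifts was not tested. The block changed no other count by over 1.5 times. Of 308 values of named genes under these settings, 271 kept their direction and their side of the threshold, 33 no longer passed, 4 newly passed and 0 reversed. Scaling by DESeq2 moved the median of all genes by less than 0.1 (log2) in each contrast. Members under 1 CPM rest on few counts, and members counted from overlapping genes carry the uncertainty of their assignment.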
